A study of Mus musculus with 6 samples.

Results

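Ion channel genes were examined in macrophages sorted from injured mouse sciatic nerve. The genes were taken by symbol from the table of counts: the potassium channels (Kcn), the transient receptor potential channels (Trpc, Trpm, Trpv and Trpa1), the sodium (Scn), calcium (Cacna) and chloride (Clcn, Clic) channels, the proton channel Hvcn1, and the Piezo, Orai and Lrrc8 families. The symbols gave 175 genes of the 24822 in the table. Of these 175, 109 were without counts in all 6 libraries, 27 had some counts but too few to be tested, and 39 were tested. Over the whole table, 14372 of the 24822 genes had a rounded count above 0 in some library, against 66 of the 175 channel genes. Of the 24822 genes 11354 were tested. The symbols also bring in genes that are not pores: accessory subunits, the TRPC4-associated protein gene Trpc4ap, and 5 opposite-strand genes of channel loci. These 5 are non-coding in RefSeq except Trpc5os, which is listed there as protein-coding.

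All 6 libraries came from C57BL/6 mice of the genotype Macblue x Cx3cr1egfp/+ on day 14 after chronic constriction injury (CCI), a loose ligature that causes neuropathic pain, and all came from the nerve on the injured side. The resident group was 3 libraries of EGFP+ cells and the recruited group 3 libraries of ECFP+ cells, both sorted as CD64+ CD11b+ SiglecF- Ly6G-. Each library pooled 3 mice and held about 400 cells. In the MacBlue transgene an element of the Csf1r promoter drives ECFP in blood monocytes and their recent progeny, and EGFP replaces 1 allele of Cx3cr1. Resident and recruited are therefore the labels' reading of a reporter and not of a traced origin, every mouse carried both reporters and 1 disrupted Cx3cr1 allele, and uninjured nerve was not analysed here. The labels used here do not say how old the mice were at injury.

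Macrophages are not electrically excitable, but ion channels serve many of their functions. Calcium enters through Orai pores that STIM proteins open when the endoplasmic reticulum is emptied, and potassium channels keep the membrane negative so that calcium goes on flowing in. Chloride-proton exchangers of the Clcn family act in endosomes and lysosomes, the proton channel Hv1 carries off the charge that the NADPH oxidase moves during the oxidative burst, and LRRC8 proteins form the anion channel that opens when a cell swells. In injured nerve, channels have been studied mainly in sensory neurons, whose axons run beside these macrophages.

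Levels of 1 gene across libraries are given in CPM, which scales counts to library size, and genes are compared with each other in FPKM, which also corrects for transcript length. Differences are on the log2 scale, recruited minus resident, with a standard error (SE). The libraries held 16688848 to 27547336 counts, and ion channel genes took 0.282 to 0.380% of them. All 8 macrophage markers were tested and summed to 37800 to 40800 CPM in the resident and 35800 to 46600 CPM in the recruited libraries. Of 8 neuronal markers 6 were at 0, and the list summed to at most 18.0 CPM. Schwann cell markers summed to 235 to 299 CPM in resident and 243 to 536 CPM in recruited libraries, almost all from Pmp22 and Mbp, while Sox10 and Cdh19 were at 0. Neutrophil markers summed to 108 to 136 CPM against 230 to 295 CPM with Ly6g at 0, and fibroblast markers to 22.4 to 55.2 CPM against 5.68 to 12.2 CPM with Pdgfra and Clec3b at 0. Dendritic cell markers summed to 192 to 769 CPM against 128 to 379 CPM, and the lists for endothelial cells, pericytes, T and NK cells, B cells and mast cells to at most 58.4 CPM each in any library. The part of such cells in the channel values was not tested. In RNA pooled from many cells, fewer cells of a type and less RNA per cell cannot be told apart.

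The silent genes were mainly channels of excitable cells. All 10 pore-forming sodium channel genes were silent, among them Scn9a, Scn10a and Scn11a, which encode the sodium channels of pain-sensing neurons, and Scn7a. The irritant and heat receptors Trpa1 and Trpv1, the cold receptor Trpm8 and the touch channel Piezo2 were silent too. So were all 4 Cacna2d genes of calcium channel subunits, among them Cacna2d1 and Cacna2d2, whose products bind gabapentin. The Cacna1g, Cacna1h and Cacna1i genes of the T-type calcium channels had no count either. Of the 7 Trpc genes 6 were silent, and the exception, Trpc2, had at most 2 counts. In a single library 3 counts, the limit that a count of 0 allows, correspond to 0.105 to 0.179 CPM, which covers counting error only.

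Among potassium channels 66 of 94 coding genes had no count. These were 30 of the 40 voltage-gated pore genes, 13 of the 15 inward rectifiers (Kcnj), 8 of the 14 leak channels (Kcnk), 5 of the 8 calcium- or sodium-activated channels and 10 of the 17 accessory subunits. The large-conductance calcium-activated channel gene Kcnma1 was silent together with its 4 beta subunit genes Kcnmb1 to Kcnmb4. The chloride channel gene Clcn1 of skeletal muscle, Clic3, Clic5, Clic6 and Lrrc8e were silent as well. The Orai family was the largest in which no member was silent, and in the Clcn and Lrrc8 families most members were tested (6 of 9 and 4 of 5).

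The voltage-gated potassium genes with no count included Kcna1, Kcna10, Kcna2, Kcna4, Kcna5, Kcna6, Kcnb2, Kcnc1, Kcnc2, Kcnc4, Kcnd2, Kcnd3, Kcnf1, Kcng1, Kcng3, Kcng4, Kcnh1, Kcnh3, Kcnh4, Kcnh5, Kcnh6, Kcnh7, Kcnh8, Kcnq5, Kcns1, Kcns2, Kcnv1 and Kcnv2. The inward rectifiers were Kcnj1, Kcnj10, Kcnj11, Kcnj12, Kcnj14, Kcnj15, Kcnj16, Kcnj3, Kcnj4, Kcnj5, Kcnj6, Kcnj8 and Kcnj9, the leak channels Kcnk1, Kcnk10, Kcnk15, Kcnk16, Kcnk18, Kcnk2, Kcnk5 and Kcnk9, and the calcium- or sodium-activated channels Kcnma1, Kcnn2, Kcnt1, Kcnt2 and Kcnu1. The accessory subunits were Kcne1, Kcne1l, Kcne2, Kcne4, Kcnip1, Kcnip2, Kcnmb1, Kcnmb2, Kcnmb3 and Kcnmb4. In the other families the silent genes included, for sodium channels, Scn10a, Scn11a, Scn1a, Scn2a, Scn3a, Scn4a, Scn4b, Scn7a, Scn8a and Scn9a, for calcium channels Cacna1e, Cacna1g, Cacna1h, Cacna1i, Cacna2d1, Cacna2d2, Cacna2d3 and Cacna2d4, and for TRP channels Trpc1, Trpc4, Trpc5, Trpc6, Trpc7, Trpm5, Trpm6, Trpm8, Trpa1, Trpv1, Trpv3 and Trpv5. The silent anion channel genes included Clcn1, Clic3, Clic5, Clic6 and Lrrc8e. Piezo2, the non-coding Kcnd3os, Kcnmb4os1 and Kcnmb4os2, and Trpc5os, which RefSeq lists as protein-coding, were silent too.

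**Figure D1:**
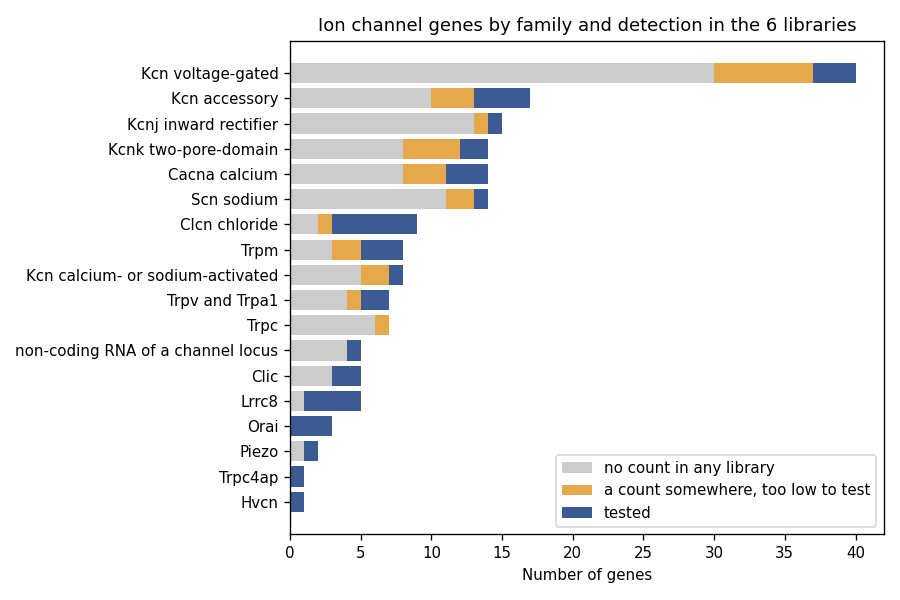
Number of ion channel genes in each family (horizontal bars) that had no count in any library, counts too low to be tested, or were tested. Of the voltage-gated Kcn genes 30 of 40 had no count, whereas all 3 Orai genes and 4 of 5 Lrrc8 genes were tested. The bar of non-coding RNAs includes Trpc5os, which RefSeq lists as protein-coding.

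Of the 27 genes with few counts, 13 had counts in a single library, 9 in a pair of libraries and 5 in 3 or more. The highest was Kcns3, a modifier subunit of Kv2 channels, with 75 counts in resident 2 and none elsewhere, which was 3.86 CPM. Kcnh2, the cardiac repolarising channel, had 41 counts in resident 3 alone. Trpm1, the channel of retinal bipolar cells, had 91 counts in resident 1, 24 in recruited 2, 1 in recruited 3 and none in the others. The calcium-permeable Trpm3 was the most spread, with 14, 0 and 43 counts in the resident and 5, 7 and 5 in the recruited libraries. The remaining 22 untested genes had at most 28 counts in any library and included Cacna1b, Cacna1c, Cacna1s, Clcn2, Kcna7, Kcnab1, Kcnd1, Kcnip4, Kcnj13, Kcnk12, Kcnk3, Kcnk4, Kcnk7, Kcnn1, Kcnn3, Kcnq3, Kcnrg, Scn2b, Scn3b and Trpv6. Such patches of counts follow single libraries and give no comparison between the groups. The libraries with a count for the most channel genes were recruited 3 with 56 and recruited 2 with 48, and resident 2 had the fewest with 38. The same libraries stood at the ends over all genes. Recruited 3 had a count for 13069 genes, recruited 2 for 12459 and resident 2 for 11436.

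No ion channel gene passed the threshold of an adjusted p of 0.05 between recruited and resident cells (0 of 39). Genes were tested by edgeR (quasi-likelihood), with p-values adjusted after Benjamini and Hochberg over the 11354 tested genes, of which 36 passed, 0.317% in either direction, 0.0617% higher in recruited and 0.255% higher in resident cells. The smallest adjusted p of a channel gene was 0.105, for Trpv2. At an unadjusted p under 0.05 there were 7 channel genes, 6 higher in recruited (8.13% of all tested genes) and 1 higher in resident cells (8.65%), against 16.8% of all tested genes in either direction. For 11 of the 39 genes, 28.2%, the ranges of resident and recruited libraries lay apart, against 24.8% of all tested genes (7 higher in recruited cells, against 12.2%, and 4 in resident cells, against 12.6%). DESeq2, run as an alternative, called 3 of the 39, Trpv2, Lrrc8d and Clcn7, all higher in recruited cells, where it called 2.44% of all genes in that direction and 5.65% in either. Without resident 1, edgeR called 580 of all genes and 4 channel genes, among them Trpv2, Lrrc8d and Clcn4, and without any other single library it called 0 channel genes.

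Log2 differences were positive for 25 and negative for 14 of the 39 genes, with a median of 0.18 against 0.01 for all tested genes. The positive share was 64.1%, against 51% of all tested genes. Among the 22 channel genes of 10 CPM or more, 15 were positive and the median was 0.28. Over the 7696 genes of that level 52.9% were positive and the median was 0.03. Transcript length moved with these values: the length implied by counts and FPKM had a median of 3532 bases over 34 tested channel genes and 2471 bases over 10633 tested genes, and across all genes the log2 difference and that length had a Spearman rho of 0.38 (0.31 across the channel genes). Genes are not independent replicates, and all share the same 6 libraries. With the length trend taken out of all genes the channel median was 0.07, over 34 channel genes, against 0 for all genes. Without resident 2 and 3 the channel median was 0, over 45 channel genes, against 0.02 for all genes. These sets differ from the 39 genes of the main fit.

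**Figure D2:**
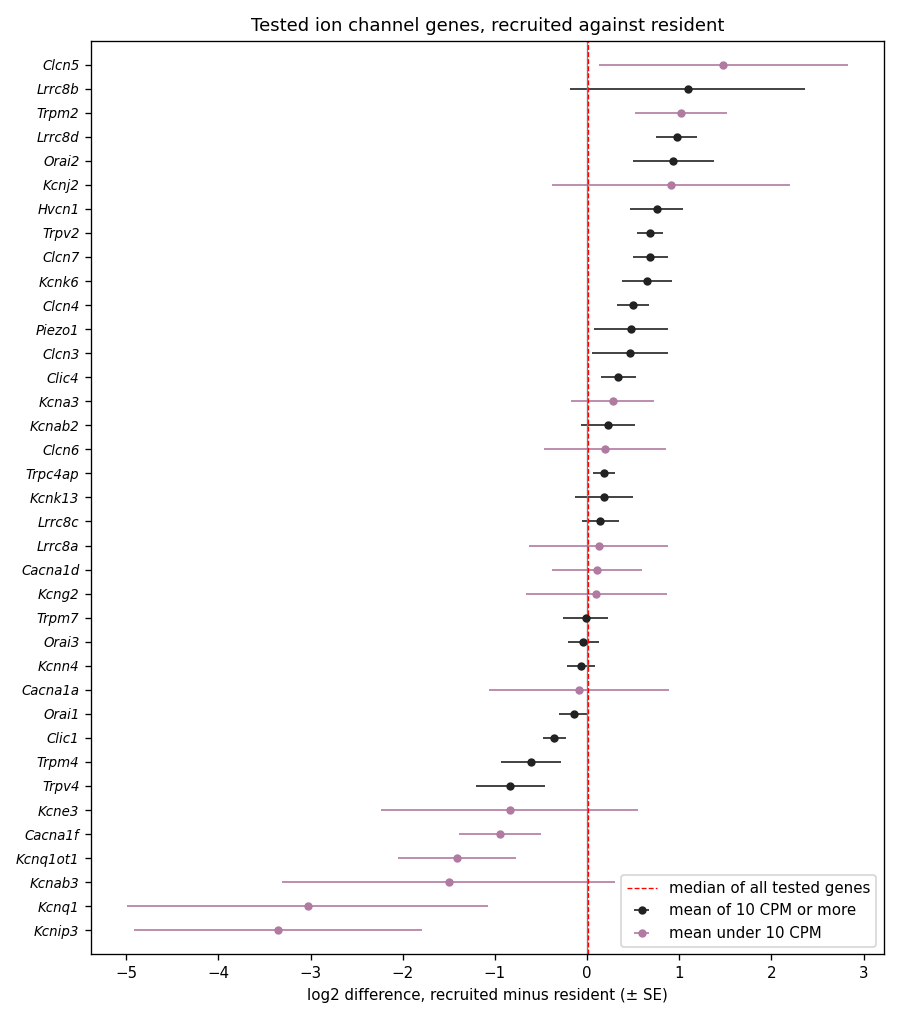
Log2 difference, recruited minus resident, of tested ion channel genes (points, with bars of 1 SE), ordered by size and coloured by mean level, with the median of all tested genes as a broken line. Over all 39 tested genes, the 17 under 10 CPM had a median SE of 0.77 and the 22 above it 0.23.

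The order of the channel transcripts per length was led by few genes. Clic1 had the highest mean, 848 ± 63.0 FPKM in resident and 672 ± 24.0 FPKM in recruited cells (SD, n = 3 each, as for all FPKM below). The chloride intracellular channel proteins, of which Clic1 is one, are soluble proteins that can enter membranes and also act in the cytosol. The next places were taken by Hvcn1 with 131 ± 34.4 and 222 ± 79.9 FPKM, Kcnn4 with 160.4 ± 12.6 and 154 ± 20.1 FPKM, and Clic4 with 115 ± 33.8 and 145 ± 13.2 FPKM. Within the same library Kcnn4 was the highest of these 3 in each resident library, while Hvcn1 was above Kcnn4 in each recruited library. Below them lay Trpc4ap, Orai1, Trpv2, Clcn7, Orai3, Kcnk13, Clcn4, Lrrc8d and Lrrc8c, with group means between 15.2 and 83.6 FPKM.

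**Figure D3:**
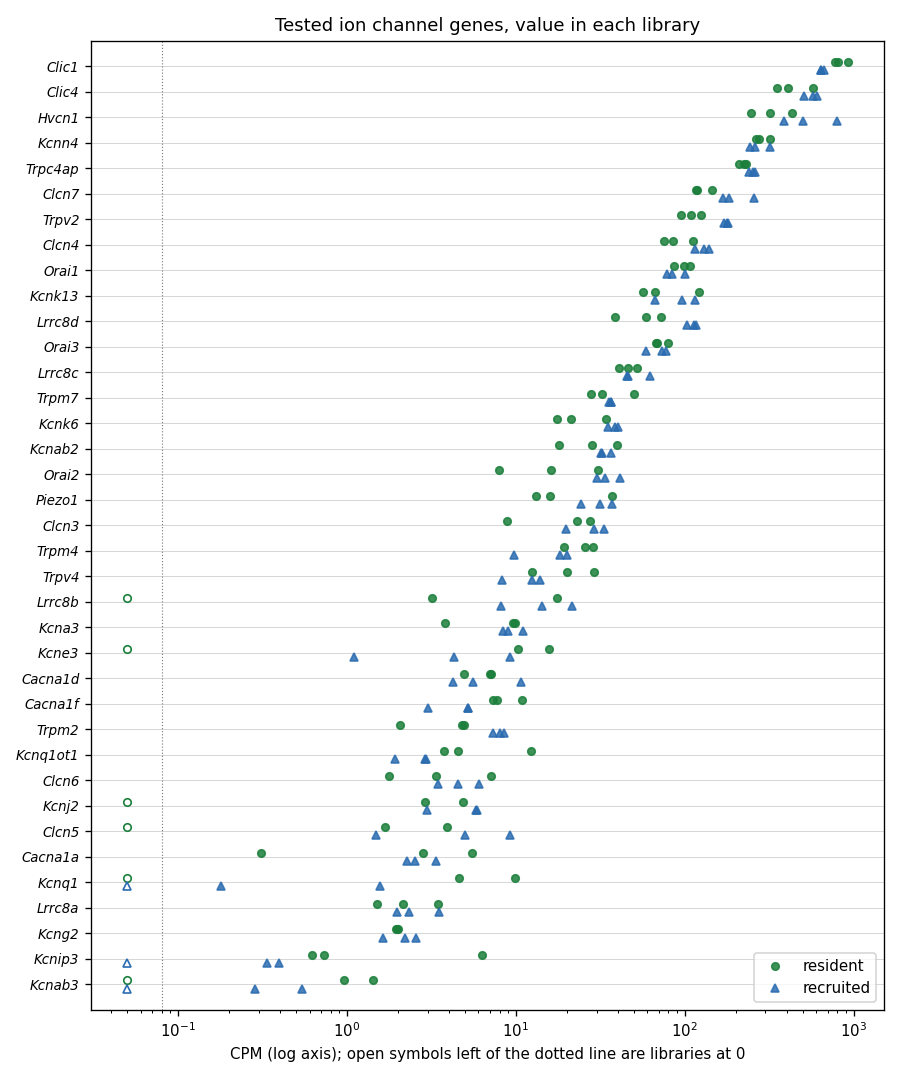
Level in CPM (log axis) of tested ion channel genes in each resident (circles) and recruited (triangles) library, with libraries at 0 as open symbols left of the dotted line. Levels ran from 921 CPM for Clic1 in resident 3 to 0 in single libraries for genes such as Lrrc8b and Kcnq1.

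Among the TRP channels, Trpv2, a calcium-permeable cation channel with a role in phagocytosis by macrophages, measured 124, 95.0 and 108 CPM in resident cells and 169.6, 178 and 179.6 CPM in recruited cells. All 3 recruited libraries were above all resident ones and lay close together. The means were 109 ± 14.6 and 176 ± 5.43 CPM (SD, n = 3), a 1.61-fold ratio and a log2 difference of 0.69 ± 0.14 with an adjusted p of 0.105 (edgeR, Benjamini-Hochberg), or 0.00189 by DESeq2. It was 0.57 with the length trend removed and 0.50 without resident 2 and 3. The gene lies at chr11:62574486-62600305 (mm10, + strand).

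Trpv4, a channel opened by swelling, warmth and lipid messengers, was lower on average in recruited cells but its libraries overlapped. Its CPM were 29.0, 20.2 and 12.4 in resident and 12.5, 8.30 and 13.8 in recruited cells. The log2 difference was -0.83 ± 0.38 (adjusted p = 0.313, edgeR). The share of Trpv2 in the summed FPKM of both genes was 86.5 ± 4.09% in resident and 94.8 ± 1.28% in recruited cells.

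The tested melastatin channels were Trpm7, Trpm4 and Trpm2. Trpm7, a magnesium- and calcium-permeable channel fused to a kinase, had 49.7, 32.4 and 28 CPM in resident and 35.8, 36.7 and 36.7 CPM in recruited cells. The resident libraries lay on both sides of the recruited ones, and the log2 difference was -0.01 ± 0.24. Trpm4, which lets sodium in when calcium is high, had 19.1, 28.5 and 25.6 CPM in resident and 18.3, 20.1 and 9.72 CPM in recruited cells. Resident 1 lay within the recruited range, and the log2 difference was -0.61 ± 0.33 (adjusted p = 0.406, edgeR). Trpm2, a channel opened by ADP-ribose and oxidants, was the lowest of the 3 per length and had 4.92, 2.06 and 4.79 CPM in resident and 8.53, 7.30 and 8.04 CPM in recruited cells. The groups did not overlap, and the log2 difference of 1.02 ± 0.50 had an adjusted p of 0.356 (edgeR). Trpc4ap, whose product binds TRPC4 and is not a channel, stood at 223, 231 and 209 CPM against 259, 254 and 241 CPM. These groups did not overlap either, and the log2 difference was 0.18 ± 0.12 (adjusted p = 0.473, edgeR). With the length trend removed the Trpc4ap difference was 0.01.

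The Clcn family was represented by its intracellular exchangers. Clcn7, the chloride-proton exchanger of lysosomes, had 117, 144 and 116 CPM in resident and 167, 256 and 183 CPM in recruited cells. The groups did not overlap, and recruited 2 was far above the other libraries. Means were 126 ± 16 and 202 ± 47.7 CPM (SD, n = 3), a 1.61-fold ratio and a log2 difference of 0.68 ± 0.19 with an adjusted p of 0.154 (edgeR), or 0.0257 by DESeq2. With the length trend removed the difference was 0.43. Ostm1, the beta subunit that ClC-7 needs for stability, had 175, 139 and 109.8 CPM in resident and 231, 206 and 211 CPM in recruited cells. Its libraries did not overlap, and its log2 difference was 0.61 ± 0.18 (adjusted p = 0.163, edgeR).

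Clcn4, an endosomal exchanger, had 112, 85.2 and 75.7 CPM in resident and 139.9, 115 and 130.0 CPM in recruited cells. The lowest recruited library was just above resident 1, and the log2 difference was 0.50 ± 0.18 (adjusted p = 0.223, edgeR). That difference was 0.27 with the length trend removed and 0.20 without resident 2 and 3. Clcn3, also endosomal, overlapped, with 23.0, 27.6 and 8.85 CPM against 19.8, 33.2 and 29.0 CPM. Clcn5 and Clcn6 had group means of 1.87 to 5.23 CPM. All 6 tested Clcn genes had a positive log2 difference, except that Clcn6 came to -0.08 with the length trend removed, to -0.16 without resident 1 and to -0.03 without recruited 1. The make-up of the family differed by less than the spread between libraries: Clcn7 held 54.8 ± 5.88% of the summed FPKM of Clcn3 to Clcn7 in resident and 57.2 ± 6.71% in recruited cells, and Clcn4 37.1 ± 5.46% and 34.9 ± 7.01%.

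The volume-regulated anion channel is built from LRRC8A, which every functional channel contains, and other LRRC8 subunits that set what it lets through. Lrrc8d, whose subunit admits larger organic molecules, had 72.4, 58.5 and 38.8 CPM in resident and 103, 116 and 114 CPM in recruited cells. The groups were well apart, with resident 1 nearest to the recruited libraries. Means were 56.6 ± 16.9 and 111 ± 6.82 CPM (SD, n = 3), a 1.96-fold ratio and a log2 difference of 0.97 ± 0.22 with an adjusted p of 0.116 (edgeR), or 0.00532 by DESeq2. It was 0.75 with the length trend removed.

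Lrrc8c overlapped between the groups, with 46.0, 40.5 and 52.3 CPM in resident and 45.6, 45.9 and 62.0 CPM in recruited cells. Lrrc8b had 17.4, 0 and 3.19 CPM against 8.17, 21.6 and 14.3 CPM, so resident 1 lay among the recruited libraries. The required subunit gene Lrrc8a was the lowest of the 4 per length, with 3.46, 2.16 and 1.5 CPM against 1.97, 3.48 and 2.32 CPM. Its value is uncertain, since 2853 of its 4308 exon bases are shared on the same strand with Gm28035 in GENCODE M21. Per length, Lrrc8d made up 43.8 ± 8.93% of the family in resident and 57.4 ± 3.19% in recruited cells, and Lrrc8c 51.8 ± 10.7% and 37.1 ± 4.23%. Lrrc8b, Lrrc8c and Lrrc8d lie side by side on the + strand of chromosome 5 (chr5:105415206-105490079, chr5:105519345-105613018 and chr5:105699963-105815215, mm10).

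Both tested Clic genes were abundant. Clic1 was at 769.8, 802 and 921 CPM in resident and 671, 636 and 643 CPM in recruited cells. All resident libraries were above all recruited ones. The log2 difference was -0.35 ± 0.12 (adjusted p = 0.209, edgeR), and -0.07 with the length trend removed, Clic1 being one of the shortest of the channel transcripts. Clic4 had 570.0, 350.1 and 408 CPM in resident and 505, 575 and 603 CPM in recruited cells. Resident 1 lay among the recruited libraries, and the log2 difference was 0.34 ± 0.19 (adjusted p = 0.417, edgeR).

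The proton channel gene Hvcn1 had the widest spread within a group of the 8 members of 100 CPM or more. Its CPM were 245, 318 and 432 in resident and 500.2, 791 and 387 in recruited cells. Recruited 3 fell within the resident range, and recruited 2 was the highest of all. The log2 difference was 0.75 ± 0.29 (adjusted p = 0.251, edgeR). Neutrophils express Hvcn1 too. Of 8 neutrophil markers 5 were tested, all with positive log2 differences and none called, among them Csf3r with 76.6, 56.9 and 60.3 CPM against 78.5, 55.8 and 92 CPM and S100a8 with 29.0, 30.1 and 72.1 CPM against 106, 38.8 and 61.6 CPM, both overlapping between the groups. Mmp8 had 8.63, 2.98 and 0.0456 CPM in resident and 89.0, 63.0 and 33.4 CPM in recruited cells, and Mmp9 had 2.17, 6.79 and 0.684 CPM against 13.5, 65.7 and 37.2 CPM. In both of these every recruited library was above every resident one, with log2 differences of 3.97 ± 1.04 (adjusted p = 0.138, edgeR) and 3.60 ± 0.85 (adjusted p = 0.117, edgeR). S100a9, also tested, overlapped between the groups, with a log2 difference of 0.37 ± 0.57. The untested markers were Ly6g, at 0 in all 6 libraries, Cxcr2 and Retnlg. Cxcr2 had 0.823 CPM in resident 2 and 0 elsewhere. Retnlg had means of 0.394 CPM in resident and 0.424 CPM in recruited cells. The part of neutrophil RNA in the Hvcn1 level was not tested. Hvcn1 shares 1574 of its 2998 exon bases with Tctn1 on the opposite strand, which was listed at 2.76 to 11.4 CPM. Without strand the reads of that stretch cannot be told apart.

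Potassium channels were few but some were abundant. Kcnn4, the intermediate-conductance calcium-activated channel KCa3.1 of immune cells, had 265, 275 and 319 CPM in resident and 260.4, 318 and 243 CPM in recruited cells. The ranges of the groups overlapped, and the log2 difference was -0.07 ± 0.15 (adjusted p = 0.872, edgeR). Kcnk13, the leak channel THIK-1 known from microglia, had 121, 66.4 and 56.4 CPM in resident and 66.5, 96.2 and 114 CPM in recruited cells. Here resident 1 was the highest of all 6 libraries, and the log2 difference was 0.18 ± 0.31. Kcnk6, the leak channel TWIK2 that has been linked to potassium efflux before inflammasome activation in macrophages, had 34.0, 21.1 and 17.6 CPM in resident and 35.2, 39.9 and 38.8 CPM in recruited cells. The groups did not overlap, but resident 1 was close to the recruited libraries. The log2 difference was 0.65 ± 0.27 (adjusted p = 0.285, edgeR) and 0.16 without resident 2 and 3.

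Of the voltage-gated channels, Kcna3 (Kv1.3, the main voltage-gated channel of T cells and of activated microglia) had 9.85, 3.81 and 9.62 CPM in resident and 11, 8.35 and 8.93 CPM in recruited cells. Per length Kcna3 was at 4.36 ± 1.99 and 5.31 ± 0.811 FPKM, far under Kcnn4. Kcng2, a modifier subunit that forms no channel by itself, was even over the resident libraries, with 1.99, 1.95 and 2.01 CPM against 2.57, 2.19 and 1.63 CPM. Kcnq1, a channel of heart and epithelia, had 0, 4.63 and 9.94 CPM in resident and 0.179, 1.57 and 0 CPM in recruited cells. Its level was thus set by resident 2 and 3, and its log2 difference of -3.03 ± 1.96 had an adjusted p of 0.483 (edgeR). The antisense RNA of that locus, Kcnq1ot1, which silences neighbouring genes on the paternal chromosome, had 3.74, 12.3 and 4.56 CPM against 2.92, 2.91 and 1.92 CPM. The groups did not overlap, and the log2 difference was -1.41 ± 0.64 (adjusted p = 0.316, edgeR). Kcnj2, the inward rectifier Kir2.1, was the only Kcnj gene tested, with 4.89, 2.88 and 0 CPM in resident and 5.79, 5.92 and 2.96 CPM in recruited cells.

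The accessory potassium channel genes were led by Kcnab2, the beta subunit of Kv1 channels, with 39.9, 18.1 and 28.1 CPM in resident and 32.0, 32.3 and 36.3 CPM in recruited cells. The resident libraries lay on both sides of the recruited ones. Kcne3, a single-pass partner of several Kv channels, had 10.3, 0 and 15.8 CPM against 9.25, 1.10 and 4.29 CPM, and its log2 difference of -0.84 ± 1.39 was smaller than its error. Kcnip3, a calcium-binding protein that partners Kv4 channels, had 6.34 CPM in resident 3 and 0 to 0.733 CPM in the other 5 libraries. Of the Kv4 genes, Kcnd2 and Kcnd3 were silent and Kcnd1 had 28 counts in recruited 2, 2 in recruited 3 and none elsewhere. Kcnab3 was at most 1.43 CPM in any library.

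For store-operated calcium entry all 3 pore genes were present. Orai1 had 107, 85.7 and 98.6 CPM in resident and 84.1, 78.8 and 100.3 CPM in recruited cells, and Orai3 had 79.8, 68.2 and 67.7 CPM against 58.5, 77.5 and 73.3 CPM. Both overlapped, with log2 differences of -0.15 ± 0.16 and -0.04 ± 0.17. Orai2, the pore known to dampen the current of Orai1 in T cells and macrophages of mice, had 30.6, 16.1 and 7.98 CPM in resident and 41.3, 30.2 and 33.5 CPM in recruited cells. Recruited 2 was just under resident 1, and the log2 difference was 0.94 ± 0.44 (adjusted p = 0.329, edgeR). Per length Orai1 made up 56.4 ± 2.85% and 51.9 ± 3.59% of the family, Orai3 38.9 ± 1.42% and 38.5 ± 4.76%, and Orai2 4.73 ± 2.49% and 9.60 ± 2.10%. The calcium sensor gene Stim1 had 19.3, 18.8 and 23.5 CPM against 16.8, 17.7 and 24.6 CPM.

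**Figure D4:**
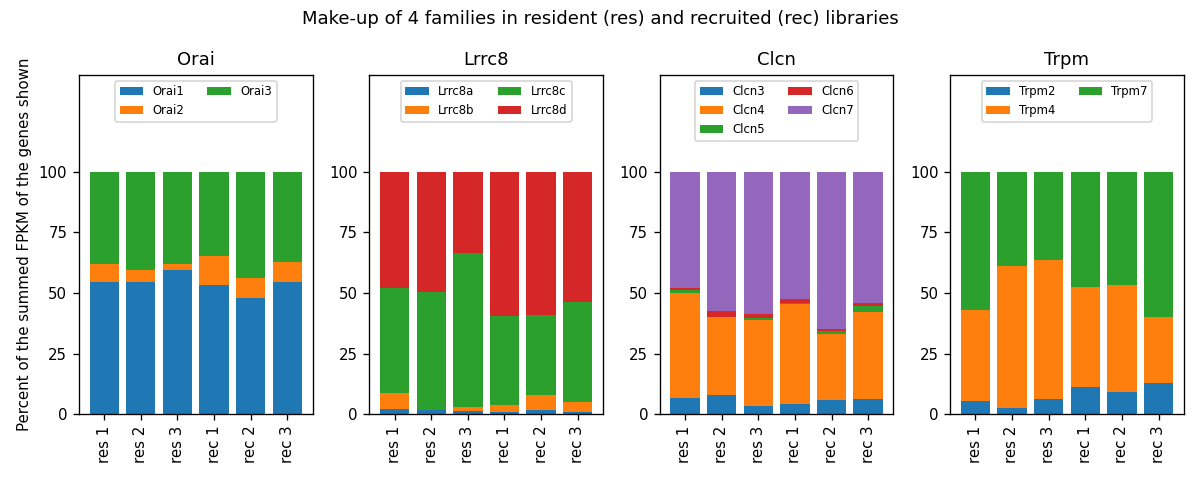
Share in percent of each gene in the summed FPKM of the genes shown, for the Orai, Lrrc8, Clcn and Trpm families in each library (stacked bars). Lrrc8d held 43.8% of its family on average in resident and 57.4% in recruited libraries, while Orai1 and Orai3 led the Orai family in all 6.

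Shares of this kind were compared for 21 genes of 7 families by a two-sided exact permutation test. With 3 libraries against 3 the smallest p it can give is 0.1, which 11 shares reached, and no share passed after Benjamini-Hochberg adjustment (smallest adjusted value 0.191). The shares of a family add up to 100% and so are not independent of each other.

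The calcium channel pores that were tested were low. Cacna1f, an L-type pore known from the retina, had 7.68, 7.30 and 10.8 CPM in resident and 5.19, 3.01 and 5.18 CPM in recruited cells. The groups did not overlap, and the log2 difference was -0.95 ± 0.45 (adjusted p = 0.335, edgeR). Cacna1d, another L-type pore, had 7.09, 7.05 and 4.92 CPM against 10.7, 5.58 and 4.24 CPM, and Cacna1a of the P/Q-type channel had 2.83, 0.309 and 5.52 CPM against 2.27, 2.53 and 3.36 CPM. Both overlapped between the groups. The mechanically gated channel Piezo1 had 15.9, 37.2 and 13.2 CPM in resident and 36.8, 31.5 and 24.1 CPM in recruited cells. Resident 2 was the highest of the 6, and the log2 difference was 0.48 ± 0.40 (adjusted p = 0.600, edgeR). Piezo1 shares 990 of 8219 exon bases with Ctu2 on the opposite strand, which was at 19.5 to 27.1 CPM.

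**Figure D5:**
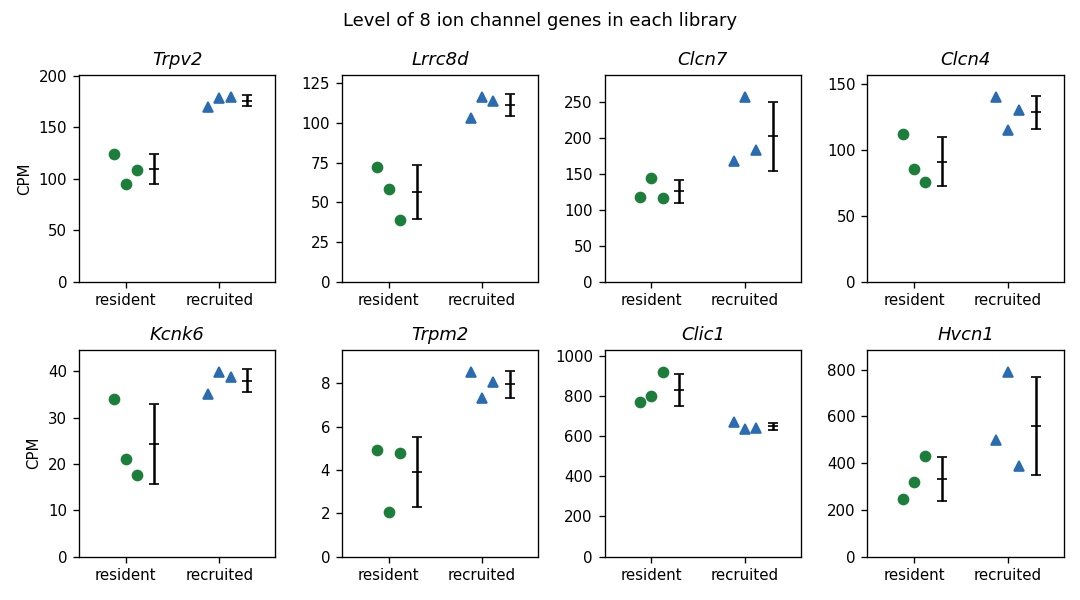
Level in CPM of 8 ion channel genes in each library (points), with the mean and SD of each group as bars. For Trpv2, Lrrc8d, Clcn7, Clcn4, Kcnk6 and Trpm2 every recruited library was above every resident one, for Clic1 every resident library was higher, and for Hvcn1 the groups overlapped.

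Promoter sequences are shown for Trpv2, Clcn7 and Clic1, members whose libraries did not overlap and whose promoter held a motif searched for. Each is the 250 bases before a transcript start on the + strand, from RefSeq (GRCm38.p6, the mm10 assembly). Capitals mark the motif: GAGGAAGT, the type bound by the macrophage factor PU.1, in Trpv2 (chr11:62574236-62574485), CACGTG, an E-box of the type bound by TFEB-related lysosomal regulators, in Clcn7 (chr17:25133141-25133390), and TGACTCA, the AP-1 motif, found as TGAGTCA because it lies on the reverse strand, in Clic1 (chr17:35049993-35050242).
Trpv2: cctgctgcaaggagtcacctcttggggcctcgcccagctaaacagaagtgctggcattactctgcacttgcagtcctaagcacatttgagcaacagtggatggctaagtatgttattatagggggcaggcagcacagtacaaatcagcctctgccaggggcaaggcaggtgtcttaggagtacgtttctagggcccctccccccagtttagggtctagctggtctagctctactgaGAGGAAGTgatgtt
Clcn7: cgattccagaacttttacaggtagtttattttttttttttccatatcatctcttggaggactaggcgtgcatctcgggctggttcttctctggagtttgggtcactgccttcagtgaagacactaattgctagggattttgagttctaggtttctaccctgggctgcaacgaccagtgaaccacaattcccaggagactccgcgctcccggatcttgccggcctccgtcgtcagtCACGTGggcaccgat
Clic1: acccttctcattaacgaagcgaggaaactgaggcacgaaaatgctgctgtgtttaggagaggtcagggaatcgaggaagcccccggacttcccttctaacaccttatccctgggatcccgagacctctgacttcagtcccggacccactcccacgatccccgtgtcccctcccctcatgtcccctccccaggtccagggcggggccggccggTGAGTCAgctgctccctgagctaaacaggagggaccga
The motifs begin 14, 15 and 38 bases before the start of the RefSeq transcript used. For Clcn7 that transcript begins inside the gene, whose outermost annotated start is 25133378, so the last bases shown lie within the gene and the motif straddles its start. Each motif was searched on both strands, and CACGTG reads the same on either. GAGGAAGT was in 3.2% of all 32851 RefSeq promoter windows (from 250 bases before a start to a short stretch past it), in 3 of 43 windows of tested channel genes (those of Trpv2 and Lrrc8c) and in 0 of 99 windows of silent ones. CACGTG was in 7.15% of all windows, in 8 of 43 windows of tested genes, 18.6% (among them Clcn4, Clcn7, Kcnn4 and Orai2), and in 4 of 99 windows of silent ones. TGACTCA was in 5.2% of all windows, in 3 of 43 of tested and 2 of 99 of silent genes. Only 30 of the 39 tested and 82 of the 109 silent genes had a window, and such a match is a description of the letters and not a measured binding site.

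Partners of the channels were read from 5 lists, and none of their genes passed the edgeR threshold. Of all tested genes 51% had a positive log2 difference, and their median was 0.01. The part of transcript length in the values of these lists was not tested. Of 9 tested genes of the mitochondrial calcium uniporter 7 were positive, with a median log2 difference of 0.40, and Smdt1, its essential regulator EMRE, was at -0.66 ± 0.18 (159, 248 and 217 CPM against 136, 142 and 117 CPM, adjusted p = 0.154, edgeR). Mcub, which encodes a blocking subunit of the uniporter, was at -0.41 ± 0.20, while the sodium-calcium exchanger gene Slc8b1 and the regulator gene Mcur1 were both at 0.40. Of 8 tested endolysosomal channels and partners 7 were positive with a median of 0.26. These included Ostm1, the mucolipin channel gene Mcoln1 with 96.6, 77.3 and 90.8 CPM against 108, 108 and 96.2 CPM, the lysosomal cation channel gene Tpcn2 with 77.2, 64.8 and 58.2 CPM against 72.9, 84 and 74.4 CPM, and the lysosomal potassium and proton channel gene Tmem175 with 50.7, 43.0 and 76.4 CPM against 64.0, 74.4 and 66.0 CPM. Of 14 tested genes of store-operated entry and the endoplasmic reticulum 7 were positive with a median of -0.01. The calcium pump Atp2a2 (SERCA2) of that list had 159, 132 and 122 CPM in resident and 193, 259 and 264 CPM in recruited cells, a log2 difference of 0.80 ± 0.17 (adjusted p = 0.105, edgeR). The log2 difference was -0.21 ± 0.13 for Saraf, which shuts store-operated entry off, -0.26 ± 0.13 for the leak channel gene Tmco1 and 0.79 ± 0.28 for the potassium counter-ion channel gene Tmem38b.

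Among the other channels of the surface membrane, 53 were in the table, 28 had no count and 18 were tested, 13 of them positive, with a median of 0.40. The ATP-gated channel P2rx4 overlapped with 502, 530.1 and 583 CPM against 507, 525 and 516 CPM, and so did P2rx7 with 74.2, 50.1 and 49.1 CPM against 61.6, 70.0 and 50.1 CPM. The lipid scramblase and ion channel Ano6 had 129.8, 71.5 and 55.8 CPM in resident and 169, 170.4 and 137 CPM in recruited cells (log2 difference 0.89 ± 0.29, adjusted p = 0.195, edgeR). The acid-activated chloride channel Tmem206 had 50.9, 30.2 and 23.7 CPM against 67.2, 81.0 and 61.9 CPM (1.00 ± 0.29, adjusted p = 0.158, edgeR). In both genes the groups were apart with resident 1 the nearest, as for Lrrc8d and Kcnk6. Of 11 tested pumps and exchangers 8 were positive with a median of 0.18. Atp1b3, a beta subunit of the sodium pump, had 549, 409 and 436 CPM against 629.9, 682 and 663 CPM, and log2 differences were 0.04 ± 0.17 for the calcium pump gene Atp2b1 and 0.72 ± 0.27 for the potassium-chloride cotransporter gene Slc12a4.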

How the data were processed

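RNA of the 6 libraries was amplified with SMART-Seq v4 and sequenced with paired ends in 2 runs, per the labels' protocols. The run of each library was not given in the sources used here. Run and group therefore cannot be told apart. The authors deposited unnormalized expected counts per gene. A second deposited table holds FPKM, which corrects for library size and transcript length. The submitters' processing notes name the tools STAR 2.5.3a, RSEM 1.2.28, Trimmomatic, FastQC, edgeR and DESeq2 and the mm10 build, without their order. Annotation and strand setting were not given in the sources used here. The reads carry no molecular identifiers.

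The deposited tables had 24848 rows, and 26 with a date in place of a symbol (0.121 to 0.138% of counts) were left out. Expected counts were rounded and tested with edgeR 4.0.16 in R 4.3.3 (TMM, filterByExpr, robust quasi-likelihood F test with group alone as predictor), adjusted after Benjamini and Hochberg over 11354 genes, with a threshold of 0.05. The SE of a log2 difference is its size over the square root of F. CPM used TMM-scaled library sizes. Replicates are pools of mice numbered in the labels. Alternatives used limma 3.58.1 and DESeq2 1.42.0, other filters and normalizations, each library left out, and log2(FPKM + 1) or log2(FPKM + 0.1). The fit was checked on simulated data. Coordinates and promoters came from RefSeq (GRCm38.p6, all 175 genes matched) and exon overlaps from GENCODE M21.

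The channel genes, the partner and marker lists and the tests were chosen with earlier results of these data known. Genes named with every library were those with an unadjusted p under 0.05 and groups that did not overlap, and up to 4 tested genes of the highest CPM in each family. From each partner list the 4 genes of the highest CPM were named. Named outside this rule, after their values were seen, were the untested Kcns3, Kcnh2, Trpm1, Trpm3 and Trpc2, the silent genes, Kcnd1, Clcn5, Mmp8, Mmp9, S100a9, Cxcr2, Retnlg, Kcnq1ot1, Trpc4ap and Stim1. Counts cover all channel genes, but some genes are not reported here by name or drawn.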

Additional observations from a re-analysis of the deposited data

How the results depend on the processing

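All 11354 genes gave 36 calls, against 58 with no filter on low counts, 73 with a filter of 10 CPM in 3 libraries, 642 with DESeq2, 97 with limma on log2(FPKM + 1), 63 on log2(FPKM + 0.1) and 8 on log2(FPKM + 1) with no filter. Leaving out 1 library gave 0 to 580 calls. The 0, without recruited 2, stood beside 1258 genes at an unadjusted p under 0.05, and the 580 came without resident 1. Ion channel genes called numbered 3 with DESeq2 and 0 to 4 with 1 library left out. The 4 came without resident 1 and included Trpv2 (adjusted p = 0.0296), Lrrc8d (0.0332) and Clcn4 (0.0494), by edgeR. In the 39 tested genes 7 had an unadjusted p under 0.05. With the filter of 10 CPM in 3 libraries 22 channel genes were left. Added after the data were seen, limma-voom with library weights called 76 genes and the fit without resident 2 and 3 called 11, neither with a channel gene among them. In the latter resident 1 is assumed to vary like the recruited libraries.

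Deviations of same-numbered libraries correlated at 0.016, 0.063 and 0.049, and those of differently numbered ones at -0.093 to 0.059. With so few libraries this cannot decide whether same-numbered pools came from the same mice. The labels do not say so either, and the main fit treated the groups as unpaired. A fit with the replicate block called 28 genes, 0 channel genes, with a channel median of 0.26 and a smallest adjusted p of 0.168 (edgeR).

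Of 697 log2 differences of single channel genes under alternatives 644 had the same direction and no call, 7 were called and 46 turned, and 21 genes never turned. Over all of them Trpv2 ranged from 0.50 to 0.79, Lrrc8d from 0.62 to 1.2, Clcn7 from 0.43 to 0.81, Hvcn1 from 0.42 to 1.19 and Clic1 from -0.40 to -0.07. The cause of turned values was not tested. Cacna1d came to -0.04 with limma-voom, -0.05 without resident 2 and 3 and -0.02 with the length trend removed. Cacna1a came to 0.49 with limma-voom, 0.33 with library weights, 0.50 with the replicate block and 0 on unfiltered log2(FPKM + 1). Kcne3 came to 0.52 with limma-voom, 0.40 with weights, 0.26 with the block and 0.59 on log2(FPKM + 0.1). Trpm7 came to 0.02 on log2(FPKM + 1), filtered or not, and 0.03 on log2(FPKM + 0.1), with the block and with weights. Without resident 2 and 3 Clic4 came to -0.02, Kcnab2 to -0.25, Kcnn4 to 0.05, Kcna3 to -0.06, Kcnq1 to 6.68, Kcnj2 to 0, Kcnk13 to -0.38, Lrrc8b to -0.24 and Lrrc8a to -0.41, and with the length trend removed Clcn6 to -0.08. With 1 library left out, genes that turned included Clcn6, which ranged from -0.16 to 0.86, Orai3 -0.12 to 0.07, Trpm7 -0.17 to 0.27, Kcnab2 -0.02 to 0.54, Kcna3 -0.05 to 0.49, Cacna1d -0.37 to 0.36, Cacna1a -0.62 to 0.79, Kcnn4 -0.18 to 0.03, Kcnk13 -0.02 to 0.59, Lrrc8a -0.14 to 0.50, Kcng2 -0.05 to 0.27 and Lrrc8c -0.01 to 0.25.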

Other observations

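Resident 1 was nearest to the recruited libraries, or among them, for Clic4, Clcn4, Kcnk6, Lrrc8b, Lrrc8d and Orai2, and above all of them for Kcnk13 (121 CPM) and Trpm7 (49.7 CPM). Other genes differed: resident 2 was the nearest for Clcn7 (144 CPM) and Piezo1 (37.2 CPM), and resident 1 the farthest for Hvcn1 (245 CPM). No count of this was made over all tested channel genes. The biological coefficient of variation was 0.606 in the resident and 0.286 in the recruited libraries when each group was fitted alone. Of the tested channel genes 5 were at 0 in resident 2, 2 in resident 3 and 1 in resident 1, against 2, 0 and 1 in recruited 1, 2 and 3.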
